A study of Homo sapiens with 6 samples.

Results

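The insulin-like growth factor (IGF) system was examined through 10 genes: the ligands IGF1 and IGF2, the receptors IGF1R and IGF2R, and the binding proteins IGFBP2 to IGFBP7. A gene entered the comparison when the platform annotation gave a probe set exactly 1 symbol and that symbol was its own. By this rule 8 of the 10 were found among 18417 genes compared. IGF2 and IGFBP6 were represented only by probe sets that carry several symbols and were not analysed here. IGF1R had 2 probe sets, of which the one with the higher mean over the arrays was used.

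The RNA came from 2 established cell lines derived from Ewing tumors, A673 and SK-N-MC, with 6 arrays in all. In each line 2 arrays held RNA of cells given siRNA 2 or siRNA 3 against STEAP1, a transmembrane protein of a metalloreductase family, and 1 array held RNA of cells given a control siRNA that the labels do not describe further. The number that ends a sample title, 2 or 3, was read as the number of the siRNA and as the same siRNA in both lines. The title of the A673 control array also ends in 2, and that of the SK-N-MC control array has no number. Cells were incubated with 5 nM siRNA reagent during 48 h, per the labels. Both siRNAs were taken as replicates of silencing. On this reading of the titles, no 2 arrays of a line had the same treatment. The spread that p-values measure is the one between these arrays, and where both siRNAs are joined it includes the difference between them. The labels name no separate cultures behind the arrays of a line, so the rest of the spread may be technical.

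IGF1 and IGF2 are secreted ligands that activate IGF1R, a receptor tyrosine kinase that signals through docking proteins to the PI3K and RAS pathways. IGF2R, also known as the cation-independent mannose 6-phosphate receptor, has no kinase, carries IGF2 to lysosomes and sorts lysosomal enzymes. The binding proteins hold the ligands outside the cell, and proteases release them again. In Ewing tumor cells, growth that depends on IGF1R and repression of IGFBP3 by the EWSR1-FLI1 fusion protein are known from earlier work.

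STEAP1, the targeted transcript, was at 30.8% and 32.1% of the control level in the A673 siRNA 2 and siRNA 3 arrays, and at 12.7% and 18.7% in those of SK-N-MC. Of the Ewing markers, CD99 stood at 9.40 to 10.25 and NKX2-2 at 5.57 to 6.15 on the log2 scale over the 6 arrays. FLI1 stood at 3.78 to 4.04, and NR0B1 was not compared. The leukocyte marker PTPRC stayed at or below 1.23, the endothelial marker PECAM1 at or below 1.70 and the epithelial marker EPCAM at or below 2.26, while keratin KRT18 reached 8.57 and collagen COL1A2 8.02. Values below are log2 of the deposited array intensity. The median gene of an array lay between 3.21 and 3.24. No detection calls were used, so values near or below that median have no stated floor. Levels of different genes come from different probes and were not set against each other.

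The promoters of 3 of the 4 genes that differed between the lines are shown because the fusion protein of Ewing cells binds DNA at GGAA. The fourth, IGFBP7, has no entry in the promoter table. Each sequence is from RefSeq (GRCh38.p14), runs 5′ to 3′ on the strand of the gene and ends at the base before the annotated gene. Capitals mark GGAA on either strand.
IGFBP2, chr2:216632578-216632827, plus strand: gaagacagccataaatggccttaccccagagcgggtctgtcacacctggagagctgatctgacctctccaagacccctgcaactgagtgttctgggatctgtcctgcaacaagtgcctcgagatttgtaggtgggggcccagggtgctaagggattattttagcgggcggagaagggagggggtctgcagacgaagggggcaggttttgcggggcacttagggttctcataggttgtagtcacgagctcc
IGFBP4, chr17:40443200-40443449, plus strand: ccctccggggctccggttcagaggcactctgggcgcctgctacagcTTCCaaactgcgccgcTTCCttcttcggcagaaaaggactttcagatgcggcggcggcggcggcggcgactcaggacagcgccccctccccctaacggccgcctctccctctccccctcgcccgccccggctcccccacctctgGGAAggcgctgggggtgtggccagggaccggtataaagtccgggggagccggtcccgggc
IGF1, chr12:102481840-102481997, minus strand: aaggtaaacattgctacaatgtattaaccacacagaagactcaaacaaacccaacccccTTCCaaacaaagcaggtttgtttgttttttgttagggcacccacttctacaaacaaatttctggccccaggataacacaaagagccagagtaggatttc

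In these windows GGAA or its complement occurred 0 times for IGFBP2, 3 times for IGFBP4 and 1 time for IGF1. Of 35116 promoter windows of 250 bases before a start in the same table, 92.7% held GGAA on one strand or the other, so a window without it, as for IGFBP2, was less common. The tandem GGAAGGAA was found in none of the 3, and in 3.06% of the 35116 windows on either strand. IGFBP4 carried TATAAA, beginning 29 bases before the start. The motif was present anywhere in the window, on either strand, in 10.7% of windows. Near that position and on the strand of the gene, 380 of 17787 plus-strand windows and 417 of 17329 minus-strand windows held it. GGGCGG, a letter pattern that SP1 binds, occurred 1 time for IGFBP2 and 1 time for IGFBP4 and not for IGF1, against 42.6% of windows that held it on either strand. The IGF1 window was cut to 158 bases, because the 92 bases next to its listed start overlap the annotated gene. With those bases the window holds 3 copies of GGAA. IGF1 has 1 further start in the table, with 2 copies of GGAA in its window. IGFBP2 has 2 further starts, with 3 and 1 copies, and the letters alone show nothing about binding.

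The first comparison asks how the IGF genes differ between the cell lines. A673 had more IGFBP2 and less IGFBP4, IGF1 and IGFBP7 than SK-N-MC. These 4 of the 8 genes passed the threshold (limma, Benjamini-Hochberg adjusted p under 0.05), 1 higher and 3 lower in A673. Across 18417 genes 24.8% passed the same test. The median difference of the 8 was -0.20, beside -0.02 for the genes at large. Of 5 fibroblast markers 3 were also called lower in A673, beside 11.4% of the genes compared. These were DCN (4.09-fold), which stood at 1.37 to 1.70 in A673 and 3.10 to 4.17 in SK-N-MC, COL1A2 (1.79-fold) and COL1A1 (1.28-fold). LUM stood at or below 1.52 on the 6 arrays and PDGFRB was not called. Of 7 Ewing markers 2 were called higher in A673, CCND1 (3.43-fold) and CD99 (1.68-fold), beside 13.5% of the genes compared. Of 5 epithelial markers EPCAM was called, 1.44-fold lower in A673, and no leukocyte or endothelial marker was called. The part of these markers in the values of the IGF genes was not tested.

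IGF1 stood at 2.80 with siRNA 2, 2.65 with siRNA 3 and 2.71 in the control array of A673, and at 3.87, 4.34 and 4.07 on the same arrays of SK-N-MC. This ligand was 2.60-fold lower in A673 (log2 difference -1.38, SE 0.14, adjusted p = 2.25e-04). The A673 values lay below the median gene of the array and did not overlap those of SK-N-MC, all above it. With 16 intensity units added before the logarithm the difference was -0.55 and still called.

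IGF1R stood at 4.10 with siRNA 2, 4.28 with siRNA 3 and 4.09 in the control array of A673, and at 3.64, 3.75 and 3.92 on the same arrays of SK-N-MC. The signalling receptor thus had its lowest A673 value above its highest SK-N-MC value, by a small margin. The difference of 0.39 (SE 0.12, 95% interval 0.11 to 0.67) had an adjusted p of 0.0503 and was not called, and after median centring of the arrays it was called at 0.40 (adjusted p = 0.0469). The second probe set of IGF1R stood at 4.13, 3.77 and 3.84 on the siRNA 2, siRNA 3 and control arrays of A673, and at 3.71, 3.97 and 3.59 on those of SK-N-MC. There the lines overlapped, and with the mean of both probe sets the difference was 0.27 (adjusted p = 0.112).

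IGF2R showed no call between the lines (log2 difference -0.08, SE 0.22, 95% interval -0.58 to 0.42). Its arrays spread by 0.76 within this gene, and the order followed the siRNA, not the line. With the A673 siRNA 2 array left out the difference was 0.11, and it was 0.12 when the siRNA 3 array of SK-N-MC was left out.

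IGFBP2 stood at 7.64 with siRNA 2, 7.69 with siRNA 3 and 7.35 in the control array of A673, and at 6.40, 6.21 and 6.21 on the same arrays of SK-N-MC. This binding protein, which is abundant in fetal tissue, was 2.44-fold higher in A673 (log2 difference 1.29, SE 0.11, adjusted p = 1.01e-04). It was the only member called higher in A673. Its 3 A673 values averaged 7.56 ± 0.18 and its 3 SK-N-MC values 6.28 ± 0.11 (SD).

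IGFBP4 stood at 4.65 with siRNA 2, 4.83 with siRNA 3 and 4.51 in the control array of A673, and at 6.17, 6.31 and 6.52 on the same arrays of SK-N-MC. IGFBP4, a binding protein cleaved by the protease PAPPA, was 3.19-fold lower in A673 (log2 difference -1.67, SE 0.14, adjusted p = 6.99e-05). This was the largest difference of the 8 between the lines. Between the control arrays alone it was -2.01, the widest gap between any 2 arrays for this gene.

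IGFBP7 stood at 2.95 with siRNA 2, 2.81 with siRNA 3 and 2.98 in the control array of A673, and at 4.23, 3.80 and 4.47 on the same arrays of SK-N-MC. IGFBP7, a secreted protein that binds IGFs weakly, was 2.38-fold lower in A673 (log2 difference -1.25, SE 0.15, adjusted p = 4.72e-04). Its A673 values lay below the median gene, its SK-N-MC values above it, and the SK-N-MC values spread more (SD 0.34, against 0.09 in A673, n = 3 each). With 16 intensity units added the difference was -0.53 and still called.

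IGFBP3, the main carrier of IGFs in blood, and IGFBP5 lay below the median gene on the 6 arrays. IGFBP3 ranged from 2.49 to 2.67 in A673 and from 2.76 to 2.91 in SK-N-MC, with no overlap but a difference of only -0.26 (SE 0.11, 95% interval -0.51 to -0.01, adjusted p = 0.133). IGFBP5 ranged from 2.26 to 2.51 in A673 and from 2.39 to 2.65 in SK-N-MC, where the lines overlapped (log2 difference -0.14, SE 0.12, 95% interval -0.43 to 0.14, adjusted p = 0.488). In all, 6 of the 8 genes had lines that did not overlap, beside 37.9% of the genes compared. A673 was higher in 2 of them, beside 19.4% of genes, and lower in 4, beside 18.5% of genes.

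**Figure D1:**
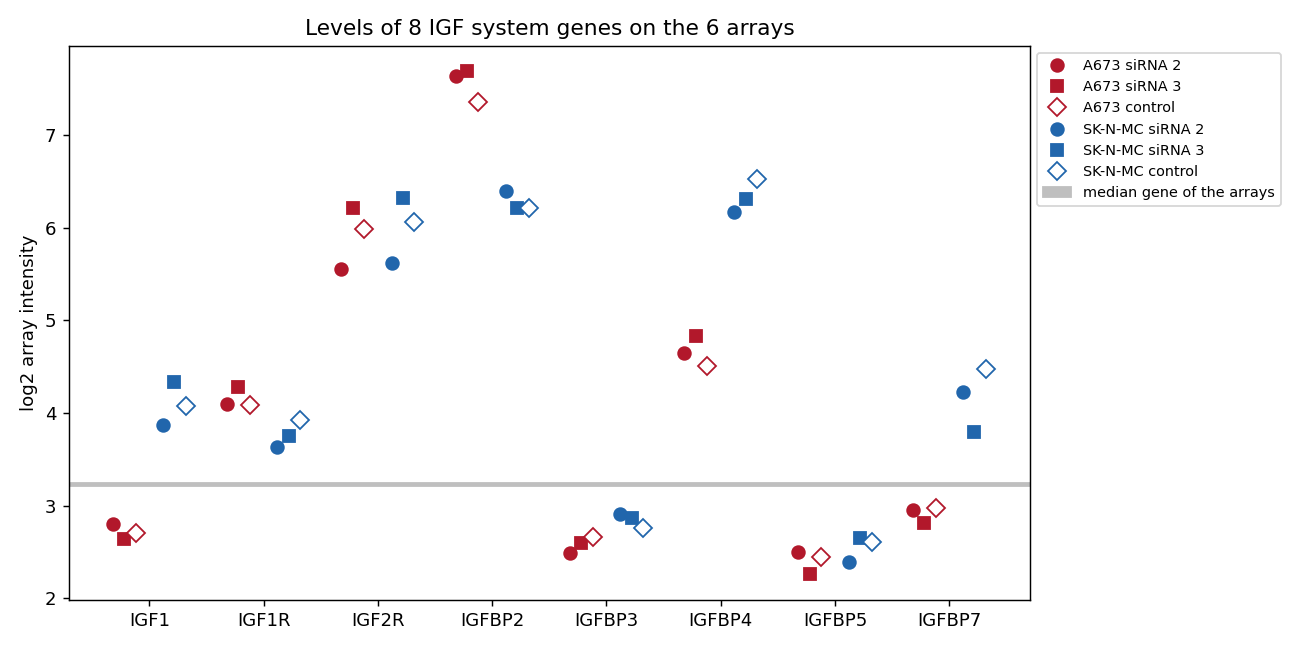
Log2 array intensity of the 8 genes (vertical axis) on each array, with A673 in red and SK-N-MC in blue, filled circles for siRNA 2, filled squares for siRNA 3 and open diamonds for control. The grey band is the range of the array medians over genes, 3.21 to 3.24. The lines separate at IGF1, IGFBP2, IGFBP4 and IGFBP7 and, by smaller margins, at IGF1R and IGFBP3. IGF2R separates by siRNA, with siRNA 2 lowest in each line. Levels compare within a gene, not between genes.

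**Figure D2:**
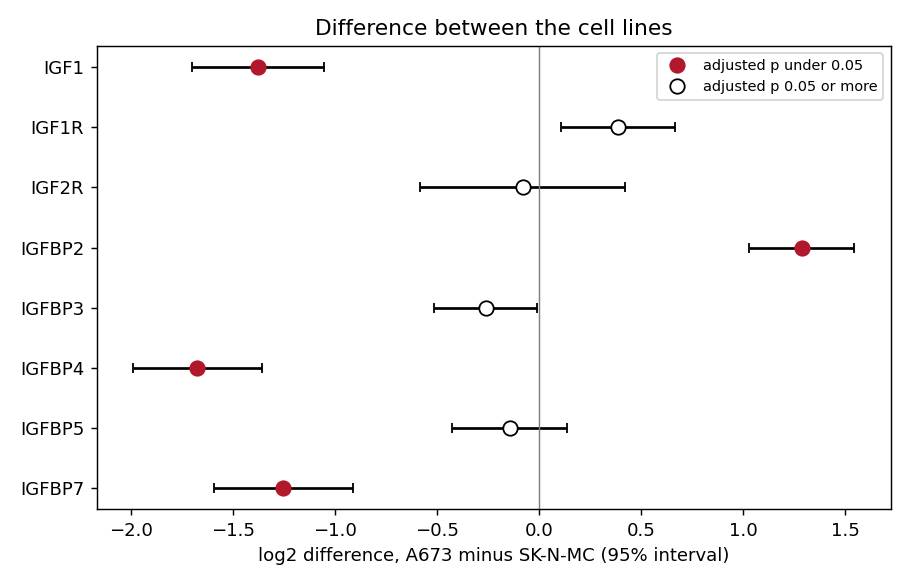
Log2 difference of A673 minus SK-N-MC for each gene (horizontal axis), with its 95% interval from the limma fit over 6 arrays. Filled points passed an adjusted p of 0.05: IGFBP2 at 1.29 on the positive side, and IGF1 at -1.38, IGFBP4 at -1.67 and IGFBP7 at -1.25 on the negative side.

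Around these genes, 83 of 98 genes of 6 lists of the IGF pathway were compared. The other 15, among them INS, were not compared here. Of the 83, 10 were called higher and 14 lower in A673, together 28.9%, near the 24.8% of the genes at large. LIN28B, an RNA-binding protein that blocks let-7 maturation, was 15.3-fold lower in A673 (log2 difference -3.94, SE 0.12, adjusted p = 6.08e-07). It stood at 1.33 to 1.57 in A673, below the median gene, and at 5.29 to 5.55 in SK-N-MC. Among 17 adaptors and docking proteins 4 were higher and 2 lower, beside 13.5% higher and 11.4% lower of the genes at large. GRB10, an adaptor that dampens insulin and IGF receptor signals, was 4.47-fold lower (log2 difference -2.16, SE 0.15), and the RAS activator SOS1 1.43-fold lower. GRB10 stood at 1.29 to 1.92 in A673, also below the median gene, and at 3.67 to 3.86 in SK-N-MC. No floor is stated for such values, so the folds of LIN28B and GRB10 are uncertain in size. The ubiquitin ligase CBL was 2.38-fold higher and the docking protein IRS1 2.31-fold higher in A673. IRS1 stood at 4.07, 3.80 and 3.56 on the siRNA 2, siRNA 3 and control arrays of A673, against 3.00, 2.17 and 2.64 on those of SK-N-MC. The insulin receptor INSR, the relative of IGF1R, was 1.65-fold lower in A673, the 1 gene called among 13 of its list. INSR stood at 2.99 to 3.17 in A673 and at 3.70 to 3.96 in SK-N-MC. The A673 values of INSR and the SK-N-MC values of IRS1 also lay below the median gene, so these folds are uncertain in size too.

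The PI3K, AKT and mTOR arm had 2 genes higher and 7 lower of 27, beside 13.5% higher and 11.4% lower of the genes at large. PIK3CB, a catalytic subunit of PI3K, was 1.68-fold higher and the S6 kinase RPS6KB2 1.29-fold higher. FOXO4, a transcription factor that AKT inhibits, was 2.07-fold lower. RPS6, the ribosomal substrate of S6 kinase, was 2.40-fold lower and has many near-identical copies in the genome, so its value is uncertain. In the RAS and ERK arm, 2 genes were higher and 3 lower of 7, beside the same shares. This list is short, and of its 13 genes only these 7 were compared. The kinases MAPK3 (1.70-fold) and MAP2K1 (1.54-fold) were higher, and the kinase ARAF (1.31-fold) and the ERK target ELK1 (1.65-fold) lower in A673. Of 11 binding protein proteases and their partners, only the lysosomal protease CTSD was called, 1.50-fold higher, beside 24.8% of all genes in either direction. CTCF, the insulator protein that binds between IGF2 and H19, was 1.40-fold higher. CTCF and LIN28B were the 2 genes called among 8 of their list, beside the same 24.8%. The adjusted p-values of these genes lay at or below 0.0493.

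A second comparison asks whether the IGF genes followed STEAP1 silencing. None of the 8 was called across lines, within A673 or within SK-N-MC. Over 18417 genes limma called 0 across lines (0%), 0 within A673 (0%) and 1 within SK-N-MC (0.00543%). At an unadjusted p under 0.05 there were 852, 617 and 943 genes in the same order, and 0 of the 8 members in each. The median response of the 8 across lines was -0.05, beside -0.005 for the genes at large.

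IGFBP7 was lower than control in 4 of 4 siRNA arrays, the only one of the 8 with the same sign throughout, where 21.8% of genes had the same sign in all 4 and 11.2% were lower in all 4. It was at 98.3% and 89.1% of control in A673 with siRNA 2 and siRNA 3, and at 84.2% and 62.5% in SK-N-MC. The fitted difference was -0.28 across lines (SE 0.16, 95% interval -0.64 to 0.08, adjusted p = 0.989) and -0.46 within SK-N-MC (SE 0.22, adjusted p = 0.993). Within SK-N-MC it was -0.68 without the siRNA 2 array and -0.25 without the siRNA 3 array, so the siRNA 3 array set most of it. Across lines it was -0.16 when the siRNA 3 array of SK-N-MC was left out. With a control array left out, the fit returned the response of the line that kept its control. This was -0.46 in SK-N-MC and -0.10 in A673.

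Interferon-stimulated genes also differed between the SK-N-MC arrays, with 1 of 24 called lower with silencing there, beside 0.00543% of the genes compared. Between the lines, 18 of the 24 were called lower in A673 than in SK-N-MC, beside 11.4% of the genes compared. The median of the 24 genes stood at 3.12 with siRNA 2 and 4.83 with siRNA 3, against 5.78 in the control array, and at 2.10 and 1.94 against 2.02 in A673. On the same arrays IGFBP7 stood at 4.23 and 3.80 against 4.47 in SK-N-MC, and at 2.95 and 2.81 against 2.98 in A673. In SK-N-MC both were highest in the control array. There the median of the 24 genes was lowest with siRNA 2, and IGFBP7 with siRNA 3. The part of the interferon-stimulated genes in the values of the IGF genes was not tested.

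IGFBP2 was at 121.8% and 126.1% of control in A673 with siRNA 2 and siRNA 3, and at 113.8% and 99.7% in SK-N-MC. The fitted difference was 0.20 across lines (SE 0.12, 95% interval -0.07 to 0.48, adjusted p = 0.989) and 0.31 within A673 (SE 0.17). With only the control of SK-N-MC, the fit across lines returned the response of that line, 0.09. With only that of A673 it returned the A673 response, 0.31. The remaining members, IGF1, IGF1R, IGF2R, IGFBP3, IGFBP4 and IGFBP5, had 2 siRNA arrays above and 2 below control each. Across lines their differences lay between -0.09 for IGF2R and 0.02 for IGF1. Each line had a single control array, so the spread among controls is unknown.

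**Figure D3:**
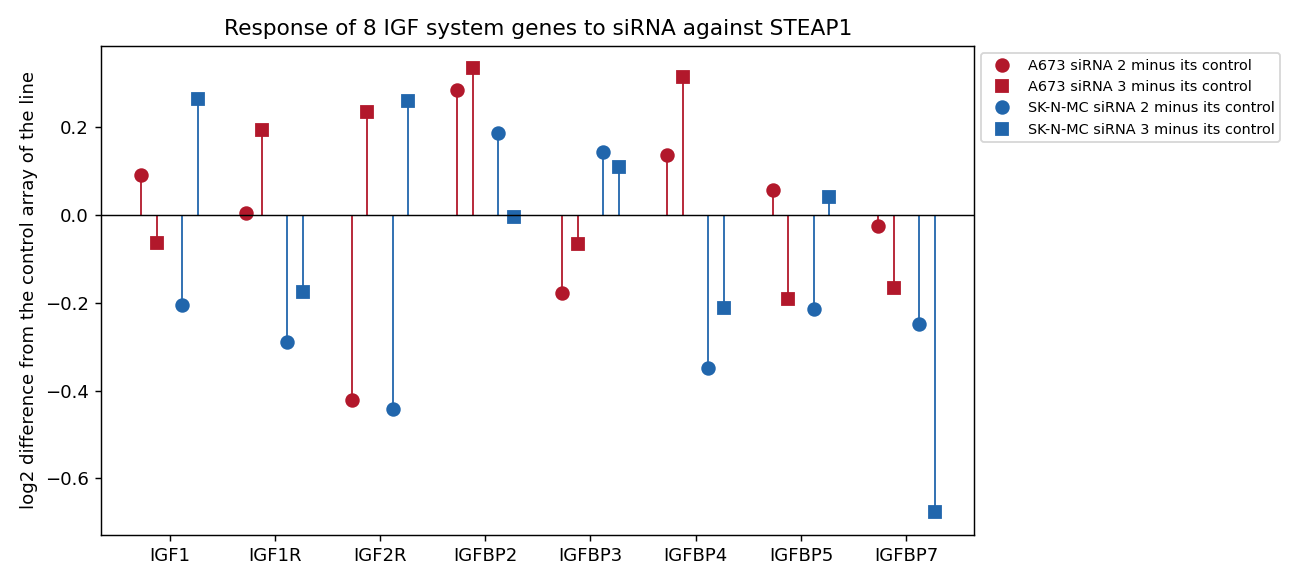
Log2 difference of each siRNA array from the control array of its line (vertical axis) for the 8 genes, with A673 in red, SK-N-MC in blue, circles for siRNA 2 and squares for siRNA 3. IGFBP7 lies below 0 on the 4 arrays, IGF2R alternates by siRNA in the same way in both lines, and IGF1R, IGFBP3 and IGFBP4 have opposite signs in the 2 lines. The arrays of a line share 1 control array.

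Of the 83 pathway genes, none was called across lines or within a line, and 1, 3 and 1 had an unadjusted p under 0.05 across lines, within A673 and within SK-N-MC. Across lines their differences ran from -0.34 for RHEB, the GTPase that activates mTOR, to 0.32 for the adaptor GRB2.

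The responses of the lines were then compared directly, by subtracting the SK-N-MC response from the A673 response. By limma 0 genes passed (0%) and 711 had an unadjusted p under 0.05, and none of the 8 members or the 83 pathway genes was called. IGFBP4 had the largest difference of the 8 (0.51, SE 0.25, 95% interval -0.08 to 1.10), at 110.0% and 124.4% of control in A673 and 78.5% and 86.3% in SK-N-MC. IGFBP7 stood at 0.37 (SE 0.31), and at 0.58 without the siRNA 2 array and 0.15 without the siRNA 3 array of SK-N-MC. In IGF1R, IGFBP3 and IGFBP4 both siRNA arrays of one line were opposite in sign to both of the other, a pattern that 20% of genes showed. The second probe set of IGF1R, given above, did not show it, and with the mean of both probe sets the IGF1R difference was 0.10, against 0.33 with the probe set used.

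The last comparison asks whether the 2 siRNAs acted alike. IGF2R gave the clearest contrast of the 8, in the same direction in both lines. IGF2R stood at 5.56 with siRNA 2, 6.22 with siRNA 3 and 5.98 in the control array of A673, and at 5.62, 6.32 and 6.06 on the same arrays of SK-N-MC. It was thus at 74.6% of control with siRNA 2 and 117.7% with siRNA 3 in A673, and at 73.6% and 119.7% in SK-N-MC. In each line siRNA 2 was lowest, control in the middle and siRNA 3 highest. IGF2R was 1.60-fold lower with siRNA 2 than with siRNA 3 (log2 difference -0.68, SE 0.13, 95% interval -0.98 to -0.38), and this difference, which uses no control array, was -0.66 in A673 cells and -0.70 in SK-N-MC cells.

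The difference was not called over 18417 genes (unadjusted p = 9.01e-04, adjusted p = 0.572), although IGF2R ranked 21 of all genes by p. No gene was called by limma (0 genes, 0%), while 1229 had an unadjusted p under 0.05, of which 1 was a member. Of 7413 genes whose log2 averaged 4 or more, 10 were at least as low as IGF2R in both lines, IGF2R included. Below control with siRNA 2 and above it with siRNA 3 in both lines were 374 of these genes. Only CDK2, ITM2A and TMEM245, named after their values were seen, had such a pattern with all 4 differences at least as large as the smallest of IGF2R, 0.24.

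The other 7 members differed by -0.16 to 0.29 between the siRNAs. IGFBP7 was the highest of them (0.29, SE 0.16, 95% interval -0.08 to 0.66), and stood at 0.14 in A673 and 0.43 in SK-N-MC. The IGFBP7 value was 0.49 with the A673 siRNA 3 array left out and 0.09 with the siRNA 3 array of SK-N-MC left out. IGF1 was 0.15 in A673 and -0.47 in SK-N-MC, and IGFBP5 0.25 and -0.25, so these differed in sign between the lines. Of the pathway genes none was called, and the values ran from -0.46 for the protease PAPPA, which cleaves IGFBP4, to 0.55 for IRS1.

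**Figure D4:**
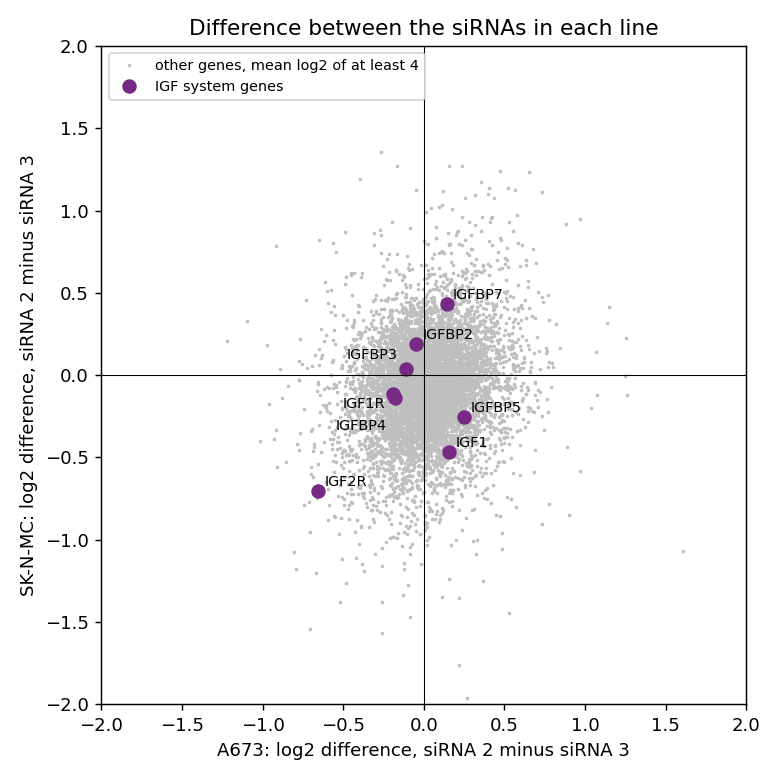
Log2 difference of siRNA 2 minus siRNA 3 in A673 (horizontal axis) and SK-N-MC (vertical axis), with the 8 IGF system genes in purple and 7410 other genes, whose log2 averaged 4 or more, in grey. IGF2R lies at -0.66 and -0.70, apart from the other 7 and at the lower left edge of the grey points, and 5 genes fall outside the axes at 2.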

How the data were processed

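The authors deposited array intensities on a linear scale, 1 column per array. Per the submitters' processing notes, RMA and Affymetrix Expression Console 1.1 were used. How the summaries returned to a linear scale is not stated there. From these values log2 was taken, with no pseudocount and no further normalization. The platform annotation gave 19460 of 33297 probe sets exactly 1 symbol, updated by gene identifier through RefSeq (GRCh38.p14, used for names and promoters). The probe set with the highest mean over the 6 arrays stood for its gene, which left 18417 genes.

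Tests were two-sided, with limma 3.58.1 in R 4.3.3 (lmFit, eBayes) over all genes and a Benjamini-Hochberg adjusted p under 0.05. Lines and silencing were fitted together as 2 terms, with 3 residual degrees of freedom. Responses within lines and their difference were contrasts of 4 group means, and siRNA 2 and siRNA 3 each had a term beside the cell line, with 2 residual degrees of freedom in both fits. The fits were tested on simulated data with a common spread and planted effects larger than any fitted difference of the members. That test does not cover small responses or dim genes. The number of arrays limits the precision. Background correction could not be varied, since no scanner files were used.

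The members and lists were chosen with earlier results of these data known. The text names the members, STEAP1, the leading calls of each pathway list between lines and, for members called between lines, the 2 genes with the smallest root mean square distance over the 6 centred log2 values. Extremes of the lists in other comparisons were named after their values were seen.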

Additional observations from a re-analysis of the deposited data

Results flagged for a closer look

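IGF1R, IGFBP3 and IGFBP4 lay on one side of control in both siRNA arrays of A673 and on the other side in both siRNA arrays of SK-N-MC. Of the genes at large, 20% did the same, and the 2 arrays of a line share their control array. The direct test of the difference (A673 response minus SK-N-MC response, limma) gave 0.33 for IGF1R (SE 0.25), -0.25 for IGFBP3 (SE 0.23) and 0.51 for IGFBP4 (SE 0.25), and called none of them (adjusted p 1.00 for each). The second probe set of IGF1R did not show opposite sides, and with the mean of both probe sets the IGF1R difference was 0.10.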

How the results depend on the processing

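The 4 calls between lines (IGF1, IGFBP2, IGFBP4, IGFBP7) were kept after a second quantile normalization, after median centring, with log2(intensity + 16), with the mean of a gene's probe sets and with an intensity trend, and median centring also called IGF1R at 0.40, which made 5. With only genes at a mean log2 of at least 4, 3 members were tested and 2 called, IGFBP2 and IGFBP4, since IGF1 and IGFBP7 lie below that limit. Leaving out each array in turn also gave 4 calls. Without either control array the line difference came from the same 4 siRNA arrays, so these 2 fits were the same check. An array left alone in its group was assumed to vary like the other groups, and without the control array of a line its response could not be fitted. IGF2R, not called in any of these, changed sign when an array was left out, from -0.28 to 0.12 between the lines and from -0.24 to 0.058 across lines for silencing. No member was called for silencing, the difference of the responses or the siRNAs under any setting tried. With the siRNA number as a replicate block, 4 members were called between lines and 0 for silencing across lines and the difference of the responses; this block was not fitted within a line. The number was read as naming an siRNA, and the labels name no shared culture. The siRNA 2 minus siRNA 3 difference correlated between the lines at 0.0663 across 18417 genes and at 0.193 across the 7413 with a mean log2 of at least 4. Dim genes limit the sizes: IGF1 and IGFBP7 differences shrank to -0.55 and -0.53 with 16 units added.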

Other observations

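The 3 IGF2BP genes, RNA-binding proteins that bind IGF2 transcripts, are described here after their values were seen. IGF2BP1 stood at 7.51, 7.53 and 7.47 on the siRNA 2, siRNA 3 and control arrays of A673, against 7.39, 7.32 and 7.50 on those of SK-N-MC. IGF2BP3 stood at 5.46, 5.44 and 5.49 in A673, against 5.64, 5.34 and 5.62 in SK-N-MC. Neither was called between the lines (adjusted p = 0.574 and 0.752), and IGF2BP2 differed by -0.40 (SE 0.14, adjusted p = 0.0753).

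IGFBP2 and IGFBP5 are adjacent coding genes in RefSeq, as are IGFBP1 and IGFBP3. Of the first pair IGFBP2 differed by 1.29 between the lines and IGFBP5 by -0.14. Of the second pair IGFBP3 differed by -0.26 and IGFBP1 by -0.29 (SE 0.12, adjusted p = 0.133), and IGFBP1 ranged from 2.81 to 2.95 in A673 and from 2.95 to 3.37 in SK-N-MC.

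Among genes whose log2 averaged 4 or more, the patterns over the 6 arrays nearest to those of the 4 called members were as follows, as root mean square distances in log2 after centring. RPL23 (0.0729) and HBP1 (0.0868) were nearest to IGF1, and RPL23 is a ribosomal gene with near-identical copies. PCDH10 (0.0751) and SLC35F2 (0.0789) were nearest to IGFBP2. RNF130 (0.0892) and CHN1 (0.100) were nearest to IGFBP4. LARS2 (0.0925) and PRKAR2B (0.119) were nearest to IGFBP7. Among the SK-N-MC arrays both were lowest with siRNA 3, as IGFBP7 was. LARS2 stood at 5.60 there, beside 6.13 with siRNA 2 and 6.11 in the control array, and PRKAR2B at 4.35, beside 4.88 and 5.03. These genes were picked for their likeness to IGFBP7, so the shared low value follows from the choice.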
